A study of Mus musculus with 4 samples.

Results

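The 10 genes described here encode cytokine receptor kinases (Jak1, Jak2, Jak3), the transcription factors they activate (Stat3, Stat5a, Stat5b) and feedback inhibitors (Socs1, Socs2, Socs3, Cish). They were taken by name from the 26611 gene rows of the count table, by way of their Entrez gene numbers, and all 10 were found. The study sequenced RNA of natural killer (NK) cells, lymphocytes that kill infected or transformed cells without prior priming, sorted from mouse spleen. The KO group was 2 libraries from Tcf7 knock-out mice and the WT group was 2 libraries from wild-type mice, each library from its own animal on the C57BL/6 background. In both groups the sort took TCRbeta-negative cells bearing NK1.1, NKp46, CD11b and KLRG1. The labels give neither the age of the mice nor the design of the knock-out allele. They name no treatment or stimulation of the cells. Tcf7 encodes Tcf-1, a transcription factor of the Wnt pathway that is used widely in lymphocyte development.

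In NK cells the receptors for interleukins 2, 7, 15 and 21 share a common gamma chain and carry Jak1 and Jak3 on their inner tails. A bound cytokine brings the kinases together, they phosphorylate the receptor, and Stat proteins dock there, are phosphorylated in turn and move to the nucleus. Interleukin 15, acting mainly through Stat5, keeps NK cells alive. Among the genes that Stat5 and Stat3 switch on are Cish and the Socs genes, whose products bind the receptor or the kinase and damp the same signal, so their transcripts are commonly read as a trace of recent cytokine signalling.

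Stat dimers bind the letters TTCNNNGAA, a palindrome that reads the same on both strands. RefSeq windows of 300 bases (250 before the annotated start and 50 from it on, GRCm38.p6) were found for 9 of the 10 genes, 11 windows in all, with none for Socs2. Cish and Socs3 held the motif, against 8.30% of all 32851 windows, and Cish held it 2 times, where 0.457% of all windows held 2 or more. The Socs1 window held no match. The windows of Cish and Socs3 are shown because they held the motif, which is in capitals. The Cish window is chr9:107296409-107296708 on the plus strand and the Socs3 window chr11:117969317-117969616 on the minus strand. The Socs3 window lies inside the gene's own span (117966079 to 117970336), so the start it uses is not the outermost one. The last bases of 8 of the 11 windows occurred in a GENCODE M21 transcript of the same gene. Those of the Cish window did, and those of the Socs3 window did not.
Cish: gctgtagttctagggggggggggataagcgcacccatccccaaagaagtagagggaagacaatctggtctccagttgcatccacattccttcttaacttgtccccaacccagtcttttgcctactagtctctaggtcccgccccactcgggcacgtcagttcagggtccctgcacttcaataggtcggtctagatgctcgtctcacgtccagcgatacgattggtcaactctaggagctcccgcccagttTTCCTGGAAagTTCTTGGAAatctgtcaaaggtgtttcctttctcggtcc
Socs3: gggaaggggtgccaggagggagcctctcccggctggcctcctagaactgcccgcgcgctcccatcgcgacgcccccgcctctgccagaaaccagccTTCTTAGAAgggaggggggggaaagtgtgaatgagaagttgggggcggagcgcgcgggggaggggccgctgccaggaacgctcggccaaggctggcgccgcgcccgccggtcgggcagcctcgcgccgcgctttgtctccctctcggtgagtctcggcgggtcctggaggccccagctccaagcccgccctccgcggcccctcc
The Cish motifs covered bases 251 to 259 and 262 to 270 of its window, so they lay in the 50 bases from the annotated start on. The Socs3 motif covered bases 97 to 105 of its window. The Tcf/Lef letters CTTTGAA or CTTTGAT or CTTTGTA or CTTTGTT, searched on both strands, were in 0 of the 11 windows and in 16.9% of all windows. A match or its absence describes these letters in these windows and says nothing of binding.

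Tcf7 stood at 11.2 and 25.0 CPM in the KO libraries, against 89.4 and 79.0 CPM in the WT libraries. Its log2 fold change was -2.22 (SE 0.45, edgeR unadjusted p = 0.00607, DESeq2 adjusted p = 0.00216). Even this gene was not called by edgeR after adjustment. CPM is the count relative to the library's total, as scaled by the TMM method, and it is the level used throughout unless a level is given per length. Libraries held 28254693 and 37384979 counts (KO) and 31860505 and 40175537 counts (WT), so 1 CPM stands for 28.3 to 40.2 counts. All 10 NK cell markers were present (0 called, where edgeR called 0% of all genes, median log2 fold change -0.03). Ncr1 was at 1610 and 1509 CPM in KO and 1731 and 1556 CPM in WT. It encodes NKp46, and some others of the 10 also encode proteins used in the sort, so their presence was fixed by the sort. The T cell gene Cd3e was at 0.239 and 0.610 CPM in KO and 0.400 and 0.458 CPM in WT. Cd3d was at 3.14 and 1.25 CPM in KO and 3.81 and 1.15 CPM in WT. For Cd3g the levels were 5.42 and 3.33 CPM in KO and 3.29 and 3.61 CPM in WT. Neutrophil and macrophage markers other than Itgax, which NK cells also express, summed to 720 and 120 CPM in KO and 148 and 21.1 CPM in WT. Erythroid markers summed to 211 and 127 CPM in KO and 39.1 and 28.8 CPM in WT. B cell markers summed to 510 and 247 CPM in KO and 291 and 197 CPM in WT, and T cell markers to 313 and 179 CPM in KO and 233 and 187 CPM in WT. Of the T cell list DESeq2 called 1 gene, the receptor constant gene Trac, at 93.9 and 36.0 CPM in KO and 5.87 and 8.30 CPM in WT (log2 fold change 3.20, DESeq2 adjusted p = 7.04e-06, edgeR adjusted p = 1.00). Trbc1 and Trbc2, which made up most of the rest, had log2 fold changes of -0.16 and -0.24. In RNA from sorted populations, fewer cells of a type and less RNA per cell cannot be told apart.

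None of the 10 genes passed the test between KO and WT cells. The largest fold changes among them, untested against the others, were those of Socs2 and Cish, both higher on average in KO, and Stat5b had the lowest. All 10 passed the filter on low counts. edgeR's quasi-likelihood test called 0 of 10 at an adjusted p under 0.05, where it called 0% of the 12723 genes tested. DESeq2 and limma voom also called 0 of 10, while DESeq2 called 0.558% of all genes. A fit with the library number as a block called 2 of the 10 and 1.74% of all genes. It is given at the end, since the labels do not say what a number shares. At an unadjusted edgeR p under 0.05 there was 1 of the 10, Socs2, against 2.84% of all genes, or 1.70% counting only those higher in KO. Both KO libraries lay above both WT libraries for 1 gene (Socs2) and below them for 2 (Stat5b and Socs3), and the groups overlapped for 7. Over all genes 9.64% lay wholly above and 11.6% wholly below, 21.2% together, so 3 of 10 is near the background. The median log2 fold change of KO over WT was -0.09 over the 10 genes and -0.01 over all genes. With 2 libraries a group an exact permutation test cannot reach the threshold, so each p rests on the spread the models share across genes.

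**Figure D1:**
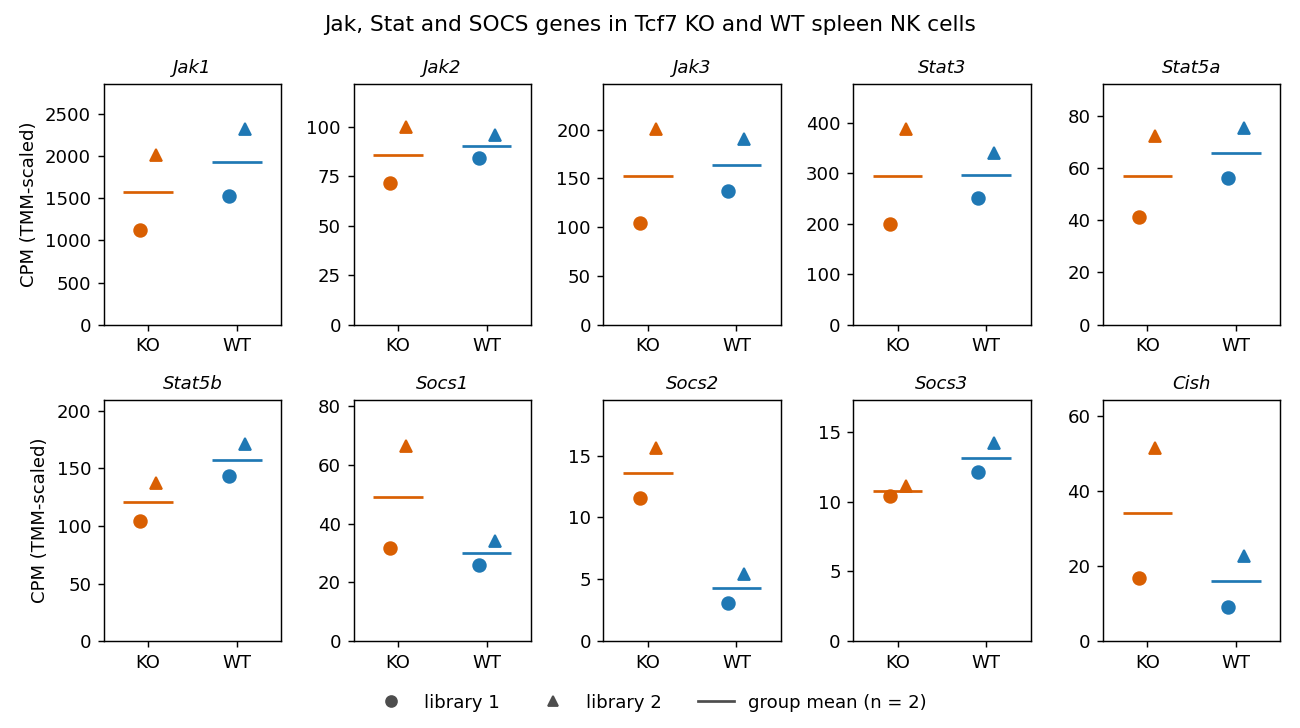
TMM-scaled CPM of each gene (linear axes from 0) in the 2 KO libraries (orange, left) and the 2 WT libraries (blue, right), with circles for library 1, triangles for library 2 and bars for group means. Socs2 is at 11.6 and 15.6 CPM in KO, above the WT values of 3.11 and 5.47 CPM, and in each panel and genotype the triangle is above the circle.

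Socs2, an inhibitor best known for restraining growth hormone signalling through Stat5, had the widest gap between the genotypes. It was counted 340 and 561 times in the KO libraries, against 101 and 215 times in the WT libraries, which is 11.6 and 15.6 CPM in KO and 3.11 and 5.47 CPM in WT. The mean was 13.6 ± 2.80 CPM in KO and 4.29 ± 1.67 CPM in WT (SD, n = 2 each), a ratio of 3.16. The lower KO library was above the higher WT library. On the log2 scale KO exceeded WT by 1.66 (SE 0.39, 95% interval 0.62 to 2.70). The edgeR p was 0.0102 before adjustment and 1.00 after it. DESeq2 gave an adjusted p of 0.0600, also outside the threshold. With a library left out the fold change stayed between 1.31, without WT library 1, and 2.14, without WT library 2.

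Cish, which encodes an inhibitor induced by Stat5 and known to limit interleukin 15 signalling in NK cells, stood at 16.8 and 51.4 CPM in KO and 9.23 and 22.7 CPM in WT. The second library of each genotype was the higher one, and KO library 1 lay below WT library 2, so the groups overlapped. The mean was 34.1 ± 24.4 CPM in KO and 16.0 ± 9.53 CPM in WT (SD, n = 2 each). This gave a log2 fold change of 1.10 (SE 0.71, interval -0.81 to 3.00, edgeR adjusted p = 1.00). It ranged from 0.11 without KO library 2 to 1.90 without WT library 2, so its size rested on which libraries were set against each other. Between libraries of the same number, KO was above WT for both numbers (16.8 against 9.23 CPM, and 51.4 against 22.7 CPM). The labels do not say what a number shares, and the fit with the number as a block is given at the end.

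Socs1, which blocks Jak catalytic activity and restrains interferon and common gamma chain cytokines, was at 31.6 and 66.3 CPM in KO and 26.0 and 34.2 CPM in WT. KO library 2 stood apart from the other 3, which lay close together. Its log2 fold change was 0.70 (SE 0.43, interval -0.44 to 1.85, edgeR adjusted p = 1.00), and 0.10 without KO library 2. Socs3, which binds gp130-type receptors and limits Stat3, was at 10.4 and 11.1 CPM in KO and 12.1 and 14.2 CPM in WT. Both KO libraries were below both WT libraries by a small margin. The log2 fold change was -0.29 (SE 0.23, interval -0.90 to 0.32, edgeR adjusted p = 1.00). Fold changes were thus above 0 for 3 of the 4 inhibitors and below 0 for Socs3, without a call for any in the fit with genotype as its only term. The neutrophil, macrophage and erythroid markers and Trac, given above, were also higher on average in KO, with the highest levels in KO library 1. The neutrophil and macrophage sum overlapped between the groups (120 CPM in KO library 2, 148 CPM in WT library 1). Socs2, Cish and Socs1 were higher in KO library 2 than in KO library 1, as were all 10 genes. The part of those cells in these levels was not tested.

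**Figure D2:**
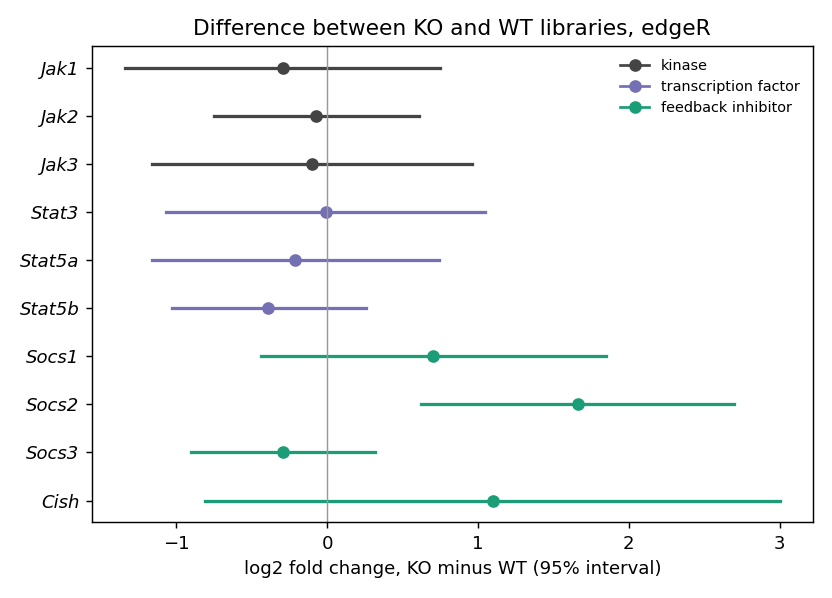
Log2 fold change of KO over WT for each gene from edgeR, with 95% intervals (fold change plus and minus the t quantile times its SE), coloured by role. The interval of Socs2 (0.62 to 2.70) does not reach 0 before adjustment over all genes, and the other 9 cross it.

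The 3 kinases had values at or slightly below 0. Jak1, which serves receptors of the common gamma chain, gp130 and interferon families, was at 1130 and 2012 CPM in KO and 1529 and 2325 CPM in WT. The groups overlapped, since KO library 2 exceeded WT library 1. Its log2 fold change was -0.29 (SE 0.39, interval -1.34 to 0.75, edgeR adjusted p = 1.00). Jak3, which pairs only with the common gamma chain, was at 104 and 201 CPM in KO and 137 and 190 CPM in WT, and KO held both the lowest and the highest value. Its log2 fold change was -0.10 (SE 0.40, interval -1.16 to 0.96). Jak2, the kinase of interleukin 12, growth hormone and other receptors, was at 71.7 and 100 CPM in KO and 84.4 and 96.0 CPM in WT, with a log2 fold change of -0.07 (SE 0.26, interval -0.75 to 0.61). For Jak2 too the KO libraries lay on either side of the WT libraries. Directions turned with the library left out. Without KO library 1 the log2 fold changes were 0.06 for Jak1, 0.15 for Jak2 and 0.30 for Jak3, and without WT library 2 they were 0.05, 0.04 and 0.17. At this number of libraries the intervals of Jak1 and Jak3 hold both no difference and a level 2-fold lower in KO.

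Stat5b, 1 of the pair of Stat5 genes and the more abundant in these cells, was at 104 and 137 CPM in KO and 143 and 171 CPM in WT. Both KO libraries were below both WT libraries, with means of 120 ± 23.2 CPM in KO and 157 ± 20.4 CPM in WT (SD, n = 2 each). Stat5b had a log2 fold change of -0.39 (SE 0.24, interval -1.03 to 0.26, edgeR unadjusted p = 0.180, adjusted p = 1.00), and it was -0.56 to -0.20 with a library left out. Stat5a was at 41.4 and 72.3 CPM in KO and 56.2 and 75.2 CPM in WT, so the groups overlapped. Its log2 fold change was -0.21 (SE 0.36, interval -1.16 to 0.74), and 0.14 without KO library 1 or 0.03 without WT library 2. Stat3, which carries interleukin 6, 10 and 21 signals, was at 199 and 389 CPM in KO and 251 and 341 CPM in WT, and the KO libraries bracketed the WT libraries. Its log2 fold change was -0.01 (SE 0.40, interval -1.07 to 1.05), a value whose sign turned with the scaling (0.01 with DESeq2 size factors).

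Of the 10 genes, 4 lie on mm10 chromosome 11, where Tcf7 also lies. Stat5b (100780731 to 100859004), Stat5a and Stat3 are neighbours within 158864 bases, and Stat5b starts 48497348 bases beyond Tcf7. Socs3 lies further along, at 117966079 to 117970336. Stat5a and Stat5b arose by duplication and remain alike, and 8.21% of the 50-base stretches in GENCODE M21 transcripts of Stat5a also occur in those of Stat5b. A read from such a stretch cannot be placed in either gene with certainty, which makes the levels of the pair less certain. Insl3, on the same strand, covers 7.55% of the annotated exon bases of Jak3, and an antisense gene, Gm17041, covers 7.46% of those of Cish.

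Per kilobase of gene length, the scale on which genes can be compared, Jak1 had the highest level by a wide margin, at 213 and 380 CPM per kb in KO and 289 and 439 CPM per kb in WT. By the WT mean it was followed by Stat3 (66.0 ± 14.3 CPM per kb), Jak3 (40.1 ± 9.26), Stat5b (28.8 ± 3.75), Socs1 (24.6 ± 4.77), Jak2 (17.9 ± 1.64), Stat5a (16.9 ± 3.46), Cish (7.39 ± 4.41), Socs3 (4.81 ± 0.555) and Socs2 (1.59 ± 0.620), each as CPM per kb in WT (SD, n = 2). In WT the ranges of Stat5b and Socs1, of Jak2 and Stat5a, and of Cish and Socs3 overlapped. The other neighbours in this order were apart in WT. In KO the ranges of Stat3 and Jak3, of Jak2 and Stat5a, and of Stat5a and Cish overlapped. Socs1 in KO, at 25.9 and 54.4 CPM per kb, lay above Stat5b at 19.1 and 25.1 CPM per kb, where their WT ranges overlapped. Socs2, the lowest of the 10 in both WT libraries, was at 4.30 and 5.77 CPM per kb in KO, above Socs3 at 3.79 and 4.08 CPM per kb.

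**Figure D3:**
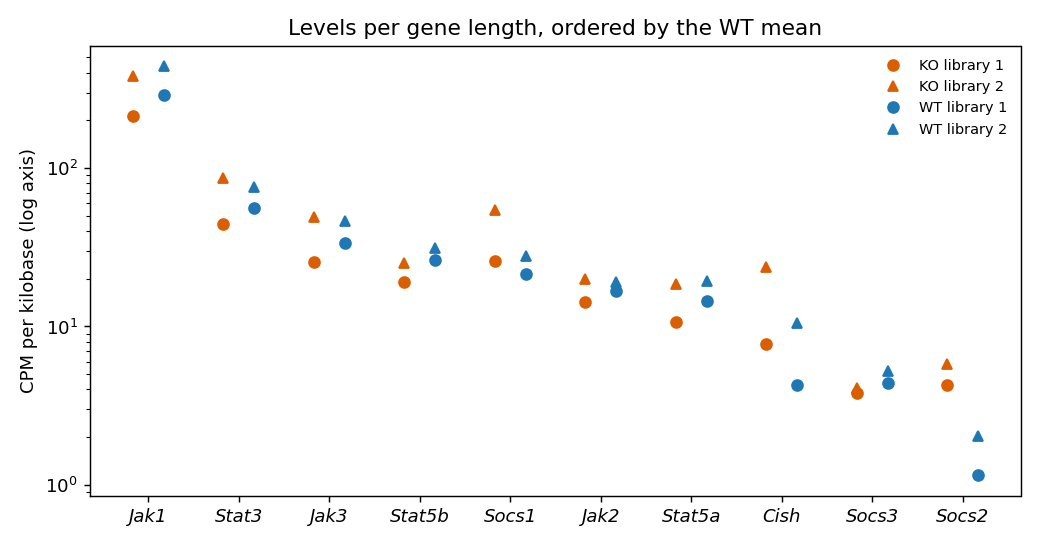
CPM per kilobase of gene length (log axis) for the 10 genes, ordered by the WT mean, with KO libraries (orange) left of WT libraries (blue). Jak1 is highest at 213 to 439 CPM per kb, and Socs2 in WT is lowest at 1.15 and 2.03 CPM per kb.

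Ratios of per-length levels within a library set the inhibitors against their activator. These ratios were chosen with the values known and were not tested. Socs2 over Stat5b was 0.225 and 0.230 in KO and 0.0440 and 0.0644 in WT. Cish over Stat5b was 0.409 and 0.948 in KO and 0.163 and 0.334 in WT. For both ratios the lower KO library was above the higher WT library. Stat5b, the denominator, was itself lower in both KO libraries, and Cish by itself overlapped between the groups. Of all single genes 21.2% lay apart, and the share of ratios that do so was not computed. Stat5b over Stat5a was 1.79 and 1.35 in KO and 1.81 and 1.63 in WT, and Jak1 over Jak3 was 8.37 and 7.71 in KO and 8.61 and 9.41 in WT. The summed level of the 4 inhibitors was 41.7 and 88.0 CPM per kb in KO and 31.1 and 45.7 CPM per kb in WT. Socs1 made up 62.0% and 61.8% of that sum in KO and 68.4% and 61.2% in WT, so it was the main inhibitor transcript of the 4 in every library. The share of Socs2 was 10.3% and 6.55% in KO and 3.70% and 4.43% in WT. The share of Socs3 was 9.08% and 4.64% in KO and 14.2% and 11.4% in WT.

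A second pattern crossed the genotypes. All 10 genes were higher in library 2 than in library 1 in both KO and WT, where 40.1% of all genes tested were. The log2 difference of library 2 over library 1 had a median of 0.82 in KO and 0.43 in WT over the 10 genes, against -0.01 in KO and 0.01 in WT over all genes. Cish moved most, by 1.60 in KO and 1.29 in WT, and Socs3 moved by 0.10 in KO and 0.23 in WT. For 6 of the 10 genes this difference was larger in each genotype than the change between genotypes. In Socs2 it was smaller (0.42 in KO and 0.80 in WT, against 1.66 between genotypes). The labels do not say that a number stands for a shared day or cage. Of 12 handling response genes, which are induced quickly by stress or cell isolation, 7 were higher in library 2 in both genotypes, with a median difference of 0.83 in KO and 0.15 in WT. Their summed level was 1126 and 1166 CPM in KO and 1157 and 1190 CPM in WT, most of it from Btg2, Junb and Ier2. Egr1 had a log2 difference of library 2 over library 1 of 2.63 in KO and 1.73 in WT. For Hspa1a it was 2.40 in KO and 2.34 in WT, and for its near-identical copy Hspa1b 2.34 in KO and 2.63 in WT, so counts may be split between the pair. Other genes of the list went the other way. Dusp1 differed by -0.02 in KO and -0.60 in WT, and Btg2 by -0.29 in KO and -0.17 in WT. Fos, Fosb and Ier2 were higher in library 2 in KO (0.85, 0.89 and 0.07) and lower in WT (-0.17, -1.01 and -0.01). Single genes of this handling list were named after their values were seen. The part of such genes in the levels of the 10 genes was not tested.

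**Figure D4:**
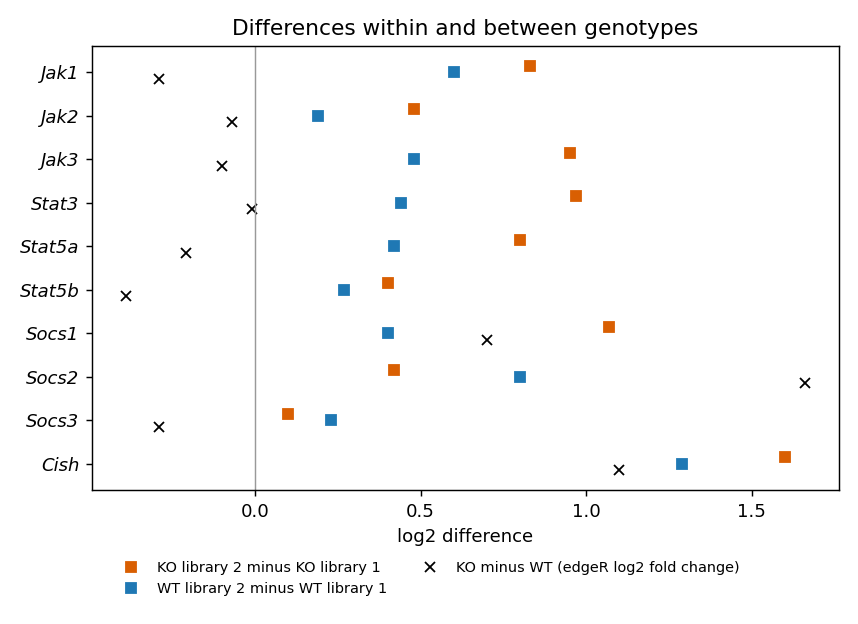
Log2 difference between library 2 and library 1 within KO (orange squares) and within WT (blue squares), and the edgeR log2 fold change of KO over WT (crosses), for each gene. All 20 squares are above 0, and Socs2 is the gene whose cross, at 1.66, lies beyond both of its squares on the same side.

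The rest of the pathway was read from lists of genes. Of 9 other Jak, Stat and SOCS genes, edgeR and DESeq2 called 0, and log2 fold changes lay between -0.19 and 0.10 with a median of 0.00. Stat4, the interleukin 12 factor, was at 220 and 383 CPM in KO and 289 and 397 CPM in WT (log2 fold change -0.19, SE 0.36). The log2 fold change was -0.03 for Tyk2, -0.01 for Stat2 and 0.03 for Stat6. Of these 9 genes 8 were also higher in library 2 in both genotypes. Of 13 other inhibitors, among them the Pias proteins and phosphatases, 0 were called by edgeR or DESeq2 (median -0.07). The phosphatase gene Ptprc, which encodes CD45, was at 1679 and 2915 CPM in KO and 2298 and 3088 CPM in WT, and Ptpn1 was at 209 and 309 CPM in KO and 233 and 278 CPM in WT.

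Upstream of the kinases, KO lay wholly above WT for 2 of 19 receptor chains and wholly below it for 5. Over all genes the shares were 9.64% and 11.6%, and the difference was not tested. edgeR called 0 of the 19 (median log2 fold change -0.12). DESeq2 called 1, lower in KO, where it called 0.558% of all genes. That was Il7r, the interleukin 7 receptor alpha chain, at 0.648 and 1.08 CPM in KO and 9.38 and 5.80 CPM in WT (log2 fold change -3.12, SE 0.48, edgeR adjusted p = 1.00, DESeq2 adjusted p = 1.68e-05). The chains that hold Jak1 and Jak3 at the interleukin 15 receptor were abundant in both genotypes. Il2rb was at 3284 and 5062 CPM in KO and 4120 and 4771 CPM in WT, and Il2rg, the common gamma chain, at 638 and 916 CPM in KO and 813 and 951 CPM in WT. Il15ra was at 10.5 and 6.85 CPM in KO and 10.4 and 8.47 CPM in WT. Of 16 ligands 6 passed the filter and 0 were called by edgeR or DESeq2. The most highly expressed were Ifng, at 66.4 and 63.1 CPM in KO and 60.8 and 44.5 CPM in WT, and Osm, itself a Stat5 target, at 24.8 and 46.7 CPM in KO and 19.7 and 22.0 CPM in WT.

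Among 18 genes that Stat5 or Stat3 can switch on, edgeR and DESeq2 called 0, with 9 above 0, 9 below 0 and a median of 0.01. The most highly expressed were Prf1, the perforin gene, at 3439 and 5319 CPM in KO and 4127 and 4997 CPM in WT, and Gzmb, the granzyme B gene, at 2798 and 2686 CPM in KO and 2115 and 1841 CPM in WT. The log2 fold change was -0.06 (SE 0.30) for Prf1 and 0.47 (SE 0.21) for Gzmb. Both KO libraries lay above both WT libraries for Gzmb, and the groups overlapped for Prf1. In the whole list KO lay wholly above WT for 2 genes and wholly below it for 2. Over all genes 9.64% lay wholly above and 11.6% wholly below, so these counts are near the background.

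**Figure D5:**
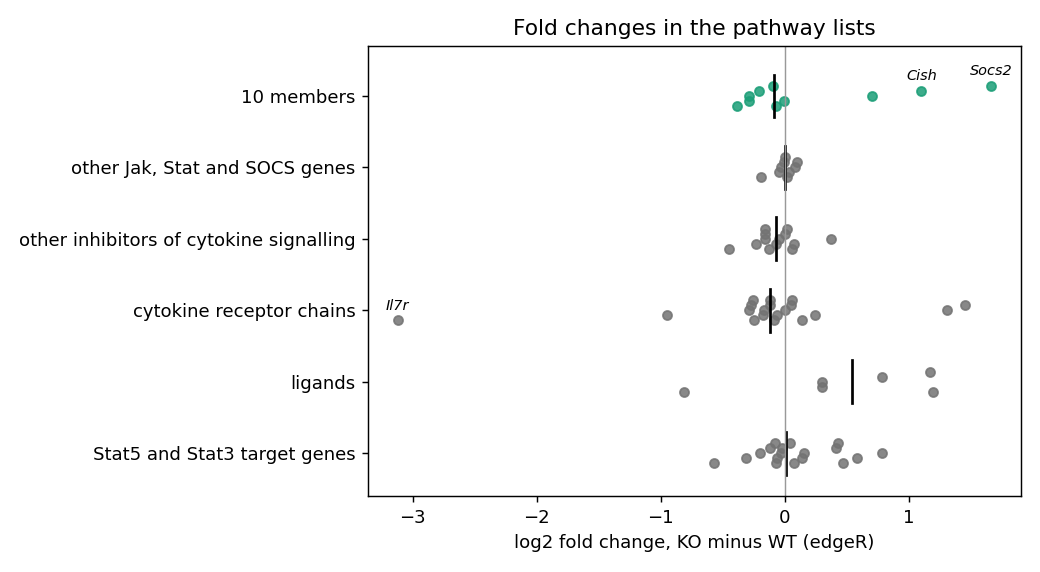
Log2 fold change of KO over WT (edgeR) of every tested gene in 6 lists, 1 dot a gene, with a black bar at each list's median; vertical offsets within a list only separate dots. The 10 genes have a median of -0.09 with Socs2 at 1.66 and Cish at 1.10, and Il7r at -3.12 is the lowest of the receptor chains.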

How the data were processed

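RNA-seq read counts of 4 libraries, 2 KO and 2 WT, were analysed. Per the file headers, the deposited table holds whole-number counts per Entrez gene and a gene length in bases. The submitters' processing notes name featureCounts and mm10. The aligner, versions, annotation and use of strand are not given in the sources used here. Each library's column in the table equalled its single-sample file (4 of 4), and 0 columns were left without a sample. Of 26611 rows, 25275 (95.0%) had a symbol in RefSeq's GRCm38.p6 table, the source of positions, and rows without one held 1.23% of counts and stayed in the fits.

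Genes were filtered with filterByExpr (minimum count 10), leaving 12723. Genes were tested in R 4.3.3 with edgeR 4.0.16 (quasi-likelihood, robust), with TMM factors, genotype as the only term and Benjamini-Hochberg adjustment over all genes (threshold 0.05). Tests are two-sided. The SE comes from the fold change and F. Differences between library numbers add 0.1 CPM. Alternatives were other scalings and filters, DESeq2 1.42.0, voom of limma 3.58.1, the library number as a block and each library left out. Code was tested on simulated data. Replicate libraries were no copies of each other (chi-square per degree of freedom 193 between KO libraries and 99.3 between WT libraries). The genes, lists and rule for naming (all 10 genes, Tcf7, other kinases and factors, 4 receptor chains, and from each pathway list the genes called or else the 2 with the highest mean CPM) were chosen with earlier results of these data known. Ncr1, Cd3d, Cd3e, Cd3g, Trac, Trbc1, Trbc2, Btg2, Junb, Ier2, Egr1, Hspa1a, Hspa1b, Dusp1, Fos and Fosb fall outside that rule. A gene that the rule names is not reported here.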

Additional observations from a re-analysis of the deposited data

How the results depend on the processing

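Socs1, Socs2, Socs3, Cish and Stat5b kept the sign of their fold change under each of 11 alternatives (2 scalings, 2 filters, 2 other tests, the block and 4 fits with a library left out, in which the lone library is assumed to vary like the other group). Stat3, at -0.01, was at 0.01 with DESeq2 size factors, 0.00 with no filter, 0.01 with at least 5 CPM in 2 libraries and 0.01 in DESeq2. With a library left out the log2 fold change ranged from -0.74 to 0.06 for Jak1, -0.30 to 0.15 for Jak2, -0.62 to 0.30 for Jak3, -0.54 to 0.39 for Stat3 and -0.63 to 0.14 for Stat5a, and the signs turned without KO library 1 or WT library 2. The count of genes called, 0 in the fit reported, was 35 with no filter, 71 with DESeq2, and 0 to 53 with a library left out (33 without KO library 1, 53 without KO library 2). No alternative without the block called any of the 10 genes, with a smallest adjusted p of 0.0600 (Socs2, DESeq2). The count of genes whose groups lay apart was 3 under each scaling.

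With the replicate number as a block, edgeR called 221 genes (1.74%), and 2 of the 10, both higher in KO: Socs2 (log2 fold change 1.69, adjusted p = 0.00400) and Cish (1.03, adjusted p = 0.0100). Deviations from the group means of libraries with the same number correlated at 0.743 over 12723 genes, but there are only 2 numbers and the labels do not say what a number shares, so the pairing is a hint from the data and the block is not the reported fit. Socs2 was counted 101 to 561 times a library. Which of depth and spread between libraries limits the calls was not tested.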
